A study of Homo sapiens with 4 samples.

Results

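Semaphorins and their receptors were measured in MDA-MB-231 cells, an established line of mesenchymal-like human breast carcinoma, with and without a short hairpin RNA against DROSHA. DROSHA is the nuclear ribonuclease that releases microRNA hairpins from their primary transcripts. The 36 genes were chosen by family membership: 20 semaphorins, 9 plexins, 2 neuropilins and 5 intracellular effectors, namely 2 CRMP proteins and 3 MICAL proteins. The family was picked with the difference of SEMA3E, 1 of its members, already known. The measured value that the rule used was signal level, since each gene was to be represented by its brightest probe set over the 4 arrays. That choice decided nothing here, because all 35 measured members had a single named probe set. These 35 stand among 15870 named genes and 18603 probe sets. SEMA3B was not analysed here.

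Semaphorins are secreted, membrane-spanning or membrane-anchored guidance cues that steer axons, blood vessels and migrating cells. They bind plexins, large receptors whose intracellular part acts on small GTPases of the Ras and Rap families and so loosens adhesion and the actin cytoskeleton. Most secreted class 3 semaphorins reach plexins through a neuropilin, a coreceptor that also binds vascular endothelial growth factors. CRMP proteins and MICAL oxidoreductases carry the signal to microtubules and actin filaments. In breast carcinoma cells the pathway is known for its part in migration and invasion.

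The shDROSHA group held 2 arrays and the shNC group, the control, 2 arrays. Per the labels the arrays of a group are biological replicates of 1 cell line, grown in the same medium with no further treatment. The design text calls the controls mock-transfected whereas their labels read shNC. How many hairpins were used, and whether cells were pooled or cloned, is not stated. Each array was made from 500 ng of total RNA. Values are log2 signals per probe set, on which a difference of 1 is a 2-fold change.

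DROSHA signal was 8.71 and 8.74 in the knockdown arrays and 9.66 and 9.76 in the controls, a 1.98-fold lower level in the knockdown. Array medians lay between 7.21 and 7.25. The 6 markers known to be high in this line, such as vimentin and CD44, averaged 9.52 to 11.96, above the upper quartile of all probe sets at 8.75. The 5 measured markers known to be low, such as EPCAM and ESR1, averaged 5.16 to 7.08, below the median of 7.22. Among the high markers, AXL rose by 0.33, whereas MSN fell by 0.22 and CAV1 fell by 0.23. Of 10 measured markers of endothelial, immune and neuronal cells, with mean signals of 4.41 to 7.16, 0 passed limma's threshold, and 0 had an unadjusted p under 0.05. In bulk RNA, fewer cells of a type and less RNA per cell cannot be told apart.

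Of the 35 measured members, 1 rose and 3 fell when DROSHA was depleted. SEMA3E, a secreted class 3 semaphorin, was higher, while SEMA3C, another of that class, DPYSL2, the CRMP protein also called CRMP2, and MICAL3, an actin- and vesicle-directed monooxygenase, were lower. The other 31 did not pass. Passing means an adjusted p under 0.05 in limma when its prior variance was let follow signal level (the trended fit), the p-values being adjusted over all 18603 probe sets by Benjamini and Hochberg's method. The 4 calls are 11.4% of the members, against 6.41% of all probe sets (3.12% higher and 3.28% lower). Without SEMA3E, which was known before, 3 of 34 passed, or 8.82%. After median centring of the arrays, 62.5% of all calls were higher in place of 48.7%, and the same 4 members passed.

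When limma took the same prior variance at every signal level (the constant fit), 0 members passed, against 0.00538% of all probe sets. At an unadjusted p under 0.05 that fit had 9 members, and the trended fit also 9. Of all 18603 probe sets, 2774 had such a p in the constant fit, and later counts at that level stand beside this number. How many did in the trended fit was not counted. The lowest adjusted p among members in the constant fit was 0.0886, for SEMA3E. The smallest two-sided p of an exact permutation test on 2 and 2 arrays is 0.333, and every call therefore rests on spread pooled over probe sets. Without shNC replicate 1 the log2 fold changes of DPYSL2 and MICAL3 were -0.30 and -0.39, and they no longer passed. Without shDROSHA replicate 1 those of SEMA3A and NRP2 were -0.29 and -0.76. Which array was left out also moved the calls over all probe sets, so such shifts are not a result about members.

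**Figure D1:**
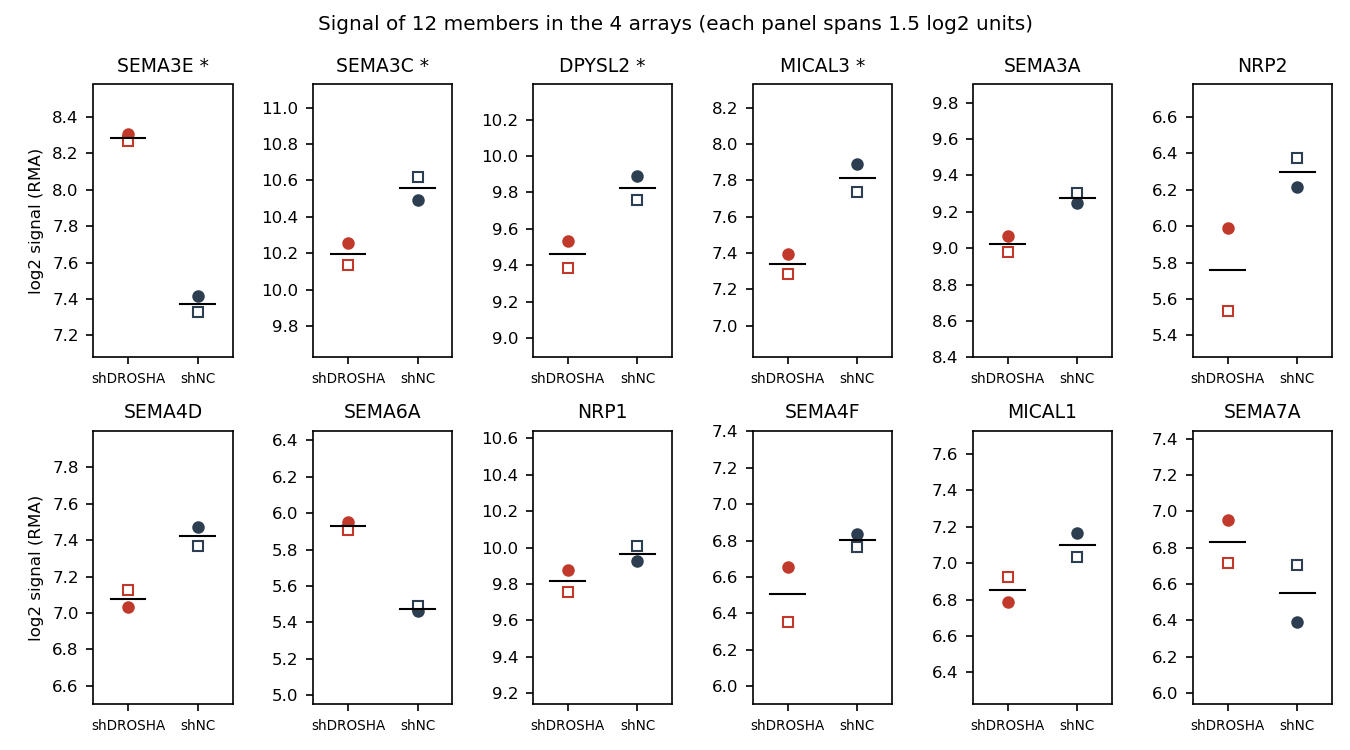
Log2 RMA signal (vertical axis) of 12 members in each array, by group, with filled circles for replicate 1, open squares for replicate 2 and a line at the group mean. Asterisks mark the 4 members past the threshold, each with groups that do not overlap, as for 47.8% of all probe sets. SEMA3E, for example, lay at 8.31 and 8.27 against 7.41 and 7.33. Each panel spans 1.5 log2 units.

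Among the ligands, 8 of 19 measured semaphorins were higher, 11 were lower, and SEMA3E and SEMA3C passed. These calls are 10.5% of the ligands, against 6.41% of all probe sets, and the difference of SEMA3E was known before. SEMA3E signals in the shDROSHA arrays were 8.31 and 8.27, against 7.41 and 7.33 in the shNC arrays. Both knockdown arrays thus lay above both controls, and the difference was many times the gap between replicates. Groups without overlap are common here, at 47.8% of all probe sets, and each later mention stands beside this share. The fold was 1.89, with a log2 fold change of 0.92 (SE 0.102, 95% interval 0.70 to 1.14). The limma adjusted p was 0.000133 in the trended fit. It was 0.0886 in the constant fit. Leaving out single arrays gave 0.87 to 0.96.

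SEMA3C, which is secreted and known to promote migration of several carcinoma cells, moved the other way. Its signals were 10.26 and 10.14 in the knockdown arrays and 10.49 and 10.62 in the controls, with no overlap. It was 1.28-fold lower, with a log2 fold change of -0.36 (SE 0.063, 95% interval -0.50 to -0.23; trended limma adjusted p = 0.00346, constant 0.236). Leaving out single arrays gave -0.42 to -0.30.

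In RefSeq's GRCh38.p14 table, SEMA3C, SEMA3E, SEMA3A and SEMA3D lie in this order on chromosome 7, with other genes between the first pair. SEMA3A, the prototype of the class and a ligand of neuropilin-1, had signals of 9.07 and 8.98 in the knockdown arrays and 9.25 and 9.30 in the controls. Its log2 fold change was -0.25 (SE 0.0741), without overlap between groups, and it did not pass (trended limma adjusted p = 0.0624). SEMA3D differed by 0.005, with overlapping arrays and a 95% interval of -0.42 to 0.43. These 4 genes thus gave 1 call higher, 1 call lower and 2 that did not pass.

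The sequences before the outermost RefSeq starts of 3 called members are shown because these genes moved in different directions. DPYSL2, the other called member, is not shown, since member windows on its chromosome were left out. Windows of all genes there were kept in the shares given below. Each run is the 250 bases before the start on the gene's own strand, 5′ to 3′, from RefSeq GRCh38.p14. Capitals mark any CACGTG (E-box), CCAAT or GGGCGG (GC box), searched on both strands, motifs that were picked with the sequences in view and do not overlap here.
SEMA3E (chr7:83649140-83649389, minus strand): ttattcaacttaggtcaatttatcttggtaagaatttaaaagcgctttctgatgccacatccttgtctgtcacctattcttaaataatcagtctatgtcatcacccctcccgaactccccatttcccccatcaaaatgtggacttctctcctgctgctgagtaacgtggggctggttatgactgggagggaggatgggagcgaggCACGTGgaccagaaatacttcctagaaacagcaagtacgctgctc
SEMA3C (chr7:80922390-80922639, minus strand): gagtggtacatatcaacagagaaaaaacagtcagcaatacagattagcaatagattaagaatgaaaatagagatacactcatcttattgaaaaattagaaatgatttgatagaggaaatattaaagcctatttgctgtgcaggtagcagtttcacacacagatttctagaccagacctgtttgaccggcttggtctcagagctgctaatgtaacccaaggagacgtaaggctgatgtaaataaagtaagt
MICAL3 (chr22:18024562-18024811, minus strand): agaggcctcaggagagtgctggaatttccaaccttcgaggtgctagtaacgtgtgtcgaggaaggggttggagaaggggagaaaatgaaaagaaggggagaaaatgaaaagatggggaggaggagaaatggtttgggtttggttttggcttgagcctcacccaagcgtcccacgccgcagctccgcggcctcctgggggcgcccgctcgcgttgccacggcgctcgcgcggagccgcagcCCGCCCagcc

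The SEMA3E window holds 1 CACGTG, which begins 45 bases before the start, and has a GC content of 46.4%. The SEMA3C window holds none of the 3 motifs and has a GC content of 36.4%. The MICAL3 window has 1 GC box and a GC content of 61.2%. A further RefSeq start of SEMA3C has a window with a GC content of 77.6% and 3 GC boxes, and a further SEMA3E start has one of 34.8% with none. CACGTG occurs in 6.34% of all 35116 such windows, and in 8.93% of the 56 windows of 31 members. CCAAT occurs in 32.0% and the GC box in 42.6% of all windows, whose median GC content is 58.0%. A match describes letters in this window, and which start the cells use was not measured.

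The other class 3 semaphorins did not pass. SEMA3F, a neuropilin-2 ligand known for inhibiting tumour spread, had signals of 5.79 and 5.96 in the knockdown arrays against 6.26 and 6.004. The arrays did not overlap, by a narrow margin, and the log2 fold change was -0.26 (SE 0.166, trended limma adjusted p = 0.452). SEMA3G differed by 0.10, with a 95% interval of -0.16 to 0.36.

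None of the 6 class 4 semaphorins, which span the membrane, passed limma's trended fit, where 6.41% of all probe sets did. However, 1 had an unadjusted p under 0.05 there and also in the constant fit. That member was SEMA4D, a ligand of plexin-B1 that is shed from many tumour cells. Its signals were 7.03 and 7.13 in the knockdown arrays and 7.47 and 7.37 in the controls, without overlap. The log2 fold change was -0.34 (SE 0.121, trended limma adjusted p = 0.119). SEMA4F, known from neurons, measured 6.65 and 6.35 against 6.84 and 6.76, a log2 fold change of -0.30 (SE 0.149). SEMA4A, SEMA4B, SEMA4C and SEMA4G differed by 0.19, -0.14, -0.13 and -0.06. Of these 4, SEMA4A alone had groups that did not overlap.

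SEMA6A, a membrane-spanning ligand of plexin-A2 and plexin-A4, had the second-highest log2 fold change of the members after SEMA3E. Its signals were 5.95 and 5.91 in the knockdown arrays and 5.46 and 5.49 in the controls. Replicates lay close together and the groups apart, at a log2 fold change of 0.45 (SE 0.164). It did not pass (trended limma adjusted p = 0.128, constant 0.17), at a signal in the dimmer part of the array, where the trended fit assumes more spread. SEMA7A, held to the membrane by a lipid anchor, measured 6.95 and 6.71 against 6.39 and 6.71, a log2 fold change of 0.28 (SE 0.154). The lower of its knockdown arrays all but met the higher control. SEMA6B, SEMA6C, SEMA6D, SEMA5A and SEMA5B differed by -0.08, -0.18, 0.02, -0.06 and 0.18, and their arrays overlapped.

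**Figure D2:**
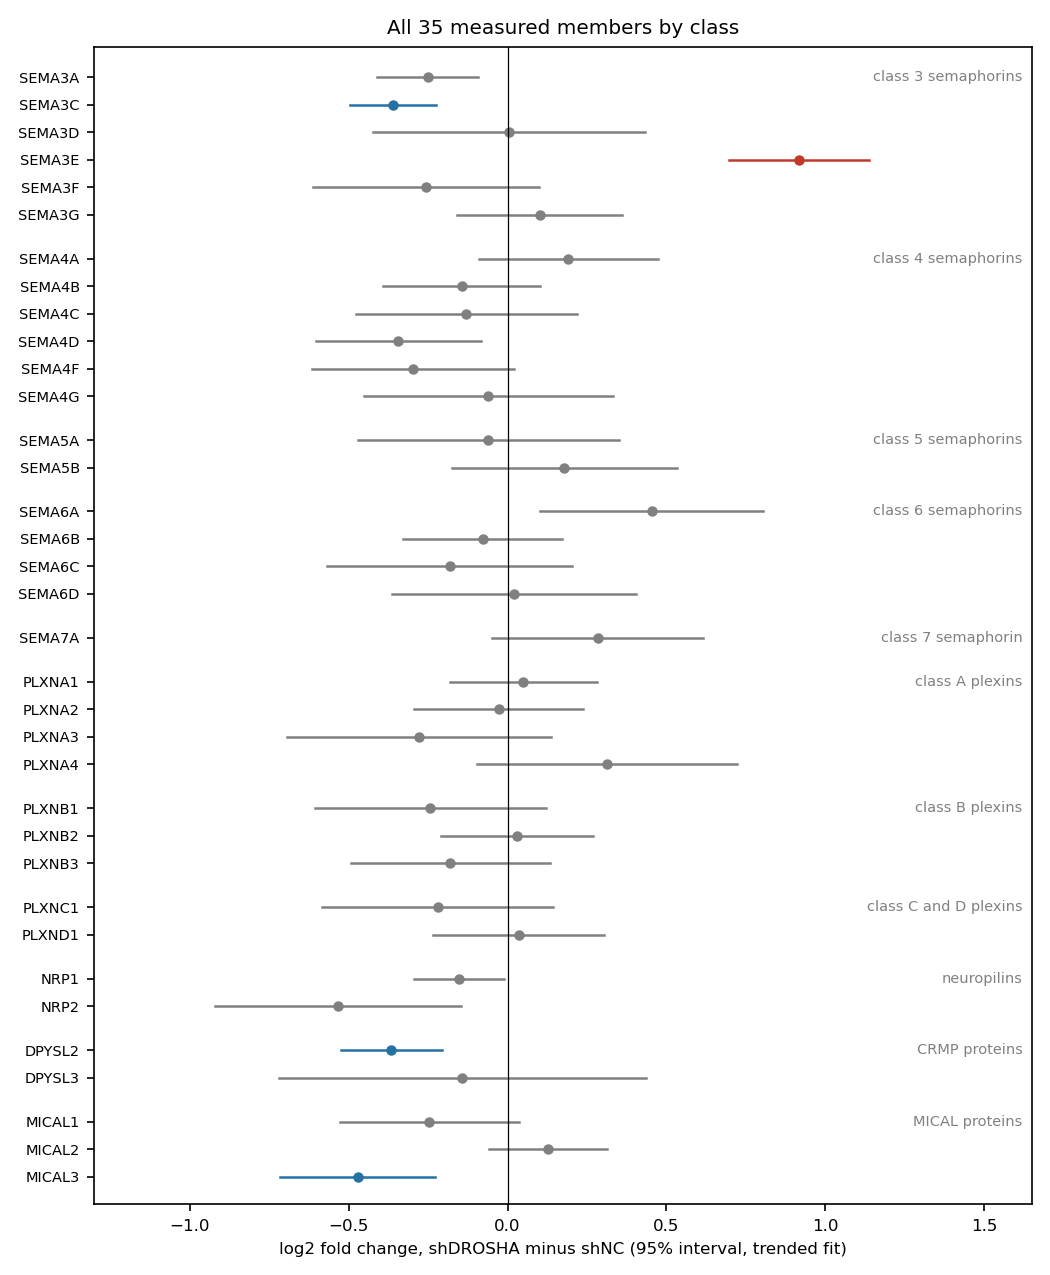
Log2 fold change (horizontal axis, shDROSHA minus shNC) of the 35 measured members by class, with 95% intervals from the trended fit. Red marks the 1 member that rose (SEMA3E, 0.92), blue the 3 that fell (MICAL3, -0.47, DPYSL2, -0.37, and SEMA3C, -0.36) and grey the 31 that did not pass.

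Among the 11 receptors, 4 were higher and 7 lower, and 0 passed in limma, against 6.41% of all probe sets. Since 8 of them lay below the median signal, where calls are rarer, 0 of 11 is not a result about receptors. At an unadjusted p under 0.05 there were 2 in the trended fit, NRP1 and NRP2, and 2 in the constant fit, NRP2 and PLXNA4. NRP1 had an unadjusted limma p of 0.159 in the constant fit. NRP2, the coreceptor of SEMA3F and of SEMA3C, measured 5.99 and 5.53 in the knockdown arrays and 6.22 and 6.38 in the controls. Its knockdown arrays differed from each other by nearly as much as the group means did. The log2 fold change of -0.53 (SE 0.18) was the lowest of all members, and it did not pass (trended limma adjusted p = 0.103). It was -0.76 without shDROSHA replicate 1 and -0.31 without shDROSHA replicate 2. NRP1, the coreceptor of SEMA3A and of VEGFA, measured 9.87 and 9.76 against 9.92 and 10.01. The groups did not overlap, at a log2 fold change of -0.15 (SE 0.066, trended limma adjusted p = 0.218).

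The 9 plexins held 0 calls in limma, with 0 at an unadjusted p under 0.05 in the trended fit and 1 in the constant fit. Of all probe sets 6.41% were called, and 7 of the plexins lay below the median signal. Their median log2 fold change was -0.03. PLXND1, which SEMA3E binds without a neuropilin, measured 7.02 and 7.03 in the knockdown arrays and 7.01 and 6.97 in the controls. Its difference of 0.03 had a 95% interval of -0.23 to 0.30, so a change of the size seen for its ligand lies outside that interval. PLXNA4 measured 4.68 and 4.88 against 4.50 and 4.43, without overlap, a log2 fold change of 0.31 (SE 0.19, trended limma adjusted p = 0.412) at a dim signal. PLXNA3 differed by -0.28 and PLXNB1, the receptor of SEMA4D, by -0.24. PLXNC1, the receptor of SEMA7A, differed by -0.22 and PLXNB3, which binds SEMA5A, by -0.18. PLXNA1, PLXNB2 and PLXNA2 differed by 0.05, 0.03 and -0.03.

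Set side by side, the 2 called ligands, SEMA3E and SEMA3C, stood beside receptors that did not pass. The other ligands named here did not pass either. Of the 11 receptors, 8 lay below the median signal, where fewer probe sets are called. SEMA3E rose by 0.92 beside a PLXND1 difference of 0.03. SEMA3C fell by 0.36 beside NRP1 and NRP2 differences of -0.15 and -0.53, which did not pass. SEMA4D and PLXNB1 differed by -0.34 and -0.24, again short of the threshold. SEMA6A differed by 0.45, and its receptors PLXNA4 and PLXNA2 by 0.31 and -0.03, none of which passed. SEMA7A and PLXNC1 differed in opposite directions, by 0.28 and -0.22, and neither passed.

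Of the 5 effectors, 1 was higher and 4 lower, and 2 fell, DPYSL2 and MICAL3, against 3.28% of all probe sets. In 5 equal bins of signal, DPYSL2 lay in the brightest, where 15.6% of all probe sets were called in either direction. MICAL3 lay in the middle bin, at 4.70%. With so few genes, 2 of 5 is not a result about effectors. In the constant fit of limma 0 passed, with 2 at an unadjusted p under 0.05, and without shNC replicate 1 neither passed. DPYSL2 binds tubulin dimers and promotes microtubule assembly until semaphorin-driven phosphorylation releases it. Its signals were 9.53 and 9.39 in the knockdown arrays and 9.89 and 9.76 in the controls, with no overlap. It fell by 0.37 on the log2 scale, or 1.29-fold (SE 0.0737, trended limma adjusted p = 0.00869, constant 0.242). Without shNC replicate 1 the difference was -0.30 and did not pass (limma adjusted p = 0.0995). DPYSL3, the related CRMP4, ranged from 4.62 to 5.55 within the control group and differed by -0.14, with a 95% interval of -0.72 to 0.44.

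MICAL proteins oxidise actin and so take filaments apart, and MICAL3 also acts in vesicle fusion. MICAL3 signals were 7.40 and 7.28 in the knockdown arrays and 7.89 and 7.73 in the controls, again with no overlap. It fell by 0.47 on the log2 scale, or 1.39-fold (SE 0.114, trended limma adjusted p = 0.0239, constant 0.194). Without shNC replicate 1 the difference was -0.39 and did not pass (limma adjusted p = 0.233). MICAL1, which binds plexins, measured 6.79 and 6.92 against 7.17 and 7.03, a log2 fold change of -0.25 (SE 0.131) that did not pass. MICAL2, a nuclear family member, differed by 0.13, with its knockdown arrays above both controls, and did not pass either. The groups did not overlap for any of the 3 MICAL genes, as for 47.8% of all probe sets, and the knockdown arrays were lower for 2 and higher for 1.

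Members also hold microRNA genes, and DROSHA acts on transcripts of this class. Whether it acts on those listed here was not tested. RefSeq places 6 hairpins on the same strand within 6 members, 5 of them measured, with 8 mature sequences and 8 different seeds. The 6 mature sequences of the measured hosts are shown for this reason, 5′ to 3′, from RefSeq GRCh38.p14, with the seed (bases 2 to 8) in capitals.
hsa-miR-648 in MICAL3 (chr22:17980928-17980946, minus strand): aAGUGUGCagggcacuggu
hsa-miR-6124 in MICAL2 (chr11:12163692-12163711, plus strand): gGGAAAAGgaagggggagga
hsa-miR-608 in SEMA4G (chr10:100975000-100975024, plus strand): aGGGGUGGuguugggacagcuccgu
hsa-miR-4636 in SEMA5A (chr5:9053865-9053886, minus strand): aACUCGUGuucaaagccuuuag
hsa-miR-6881-5p in SEMA7A (chr15:74411406-74411427, minus strand): uGGGGUAAggauaggaggguca
hsa-miR-6881-3p in SEMA7A (chr15:74411361-74411382, minus strand): aUCCUCUUucguccuucccacu

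Among these hosts MICAL3, which holds miR-648, fell by 0.47, and the other 4 did not pass. MICAL2 differed by 0.13, SEMA4G by -0.06, SEMA5A by -0.06 and SEMA7A by 0.28. The arrays measured host mRNA, and the microRNAs themselves were not measured here.

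Of the 35 members, 13 were higher and 22 lower, and the median log2 fold change was -0.13, against 0.0009 over all probe sets. These values describe the list and were not tested. The median was -0.11 to -0.06 when single arrays were left out, and -0.10 with arrays centred on their medians. The groups did not overlap for 20 members, 7 with higher and 13 with lower knockdown arrays. That is 57.1%, against 47.8% of all probe sets. How all probe sets without overlap split by direction was not counted, so 7 and 13 are not a result about members. Signal level matters for such counts, since 22 members lay below the median signal of all probe sets. In 5 equal bins of signal, from the dimmest to the brightest, 6, 10, 11, 4 and 4 members were found, with 0, 0, 1, 1 and 2 calls. The share of all probe sets called there rose from 0.833% and 1.94% through 4.70% and 8.92% to 15.6%.

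**Figure D3:**
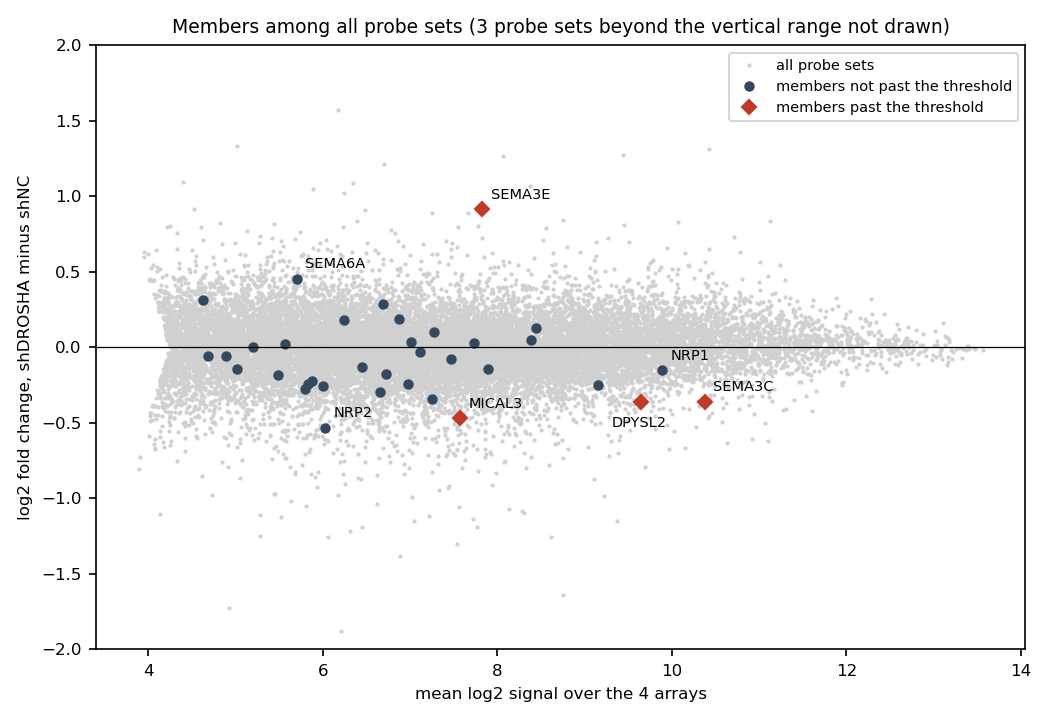
Log2 fold change (vertical axis, shDROSHA minus shNC) against mean log2 signal (horizontal axis) of all probe sets in grey and the 35 members in dark blue, with red diamonds for the 4 past the threshold. SEMA3E (0.92), whose difference was known when the family was picked, is the highest member, and most members lie within the grey cloud. 3 probe sets beyond 2 log2 units are not drawn.

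Further genes of semaphorin signalling were taken from a list of 48 ligands, coreceptors, GTPases, GTPase regulators and kinases, of which 39 were measured. In the trended fit of limma 1 rose, 3 fell and 35 did not pass, or 10.3% called against 6.41% of all probe sets. These genes were bright: in the same 5 bins of signal, from the dimmest, 4, 5, 5, 10 and 15 of them were found, with 1, 0, 0, 1 and 2 calls. The shares of all probe sets called in the brightest pair of bins were 8.92% and 15.6%, so 10.3% is not a result about the list. In the constant fit 0 passed, with 6 at an unadjusted p under 0.05, as had 2774 of all 18603 probe sets. Their median log2 fold change was 0.03, with 22 higher and 17 lower.

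CDK5, a kinase that primes DPYSL2 for release from tubulin, measured 10.26 and 10.13 in the knockdown arrays against 10.66 and 10.65. It fell by 0.46 (SE 0.0589, trended limma adjusted p = 0.000425). GSK3B, the kinase that acts on DPYSL2 after CDK5, differed by -0.08, and FYN, a plexin-associated kinase, by -0.24 without passing. LIMK1, which inactivates the actin-severing protein cofilin, measured 8.15 and 8.08 against 8.66 and 8.79 and fell by 0.61 (SE 0.0908, trended limma adjusted p = 0.00111). Its relative LIMK2 differed by 0.06. CFL1, cofilin itself, differed by -0.11 (SE 0.0387, trended limma adjusted p = 0.109).

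Ras-family GTPases, the substrates of plexins, went different ways. MRAS measured 4.97 and 4.49 in the knockdown arrays against 5.79 and 5.89, a dim probe set with an uneven knockdown pair, and fell by 1.11 (SE 0.196, trended limma adjusted p = 0.00374). RRAS2 measured 9.97 and 10.02 against 9.67 and 9.68 and rose by 0.32 (SE 0.0613, trended limma adjusted p = 0.00646). RRAS differed by -0.15, RAP1A by 0.16 and RAP1B by 0.16, and none of these 3 passed. RHOA, RAC1 and CDC42 differed by -0.07, 0.07 and 0.06. Among further partners MET, a receptor kinase that associates with plexin-B1, differed by -0.07. VEGFA, a neuropilin ligand, differed by -0.04, and FURIN, the protease that processes class 3 semaphorins, by 0.09. ERBB2, KDR and FLT1 were not analysed here.

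**Figure D4:**
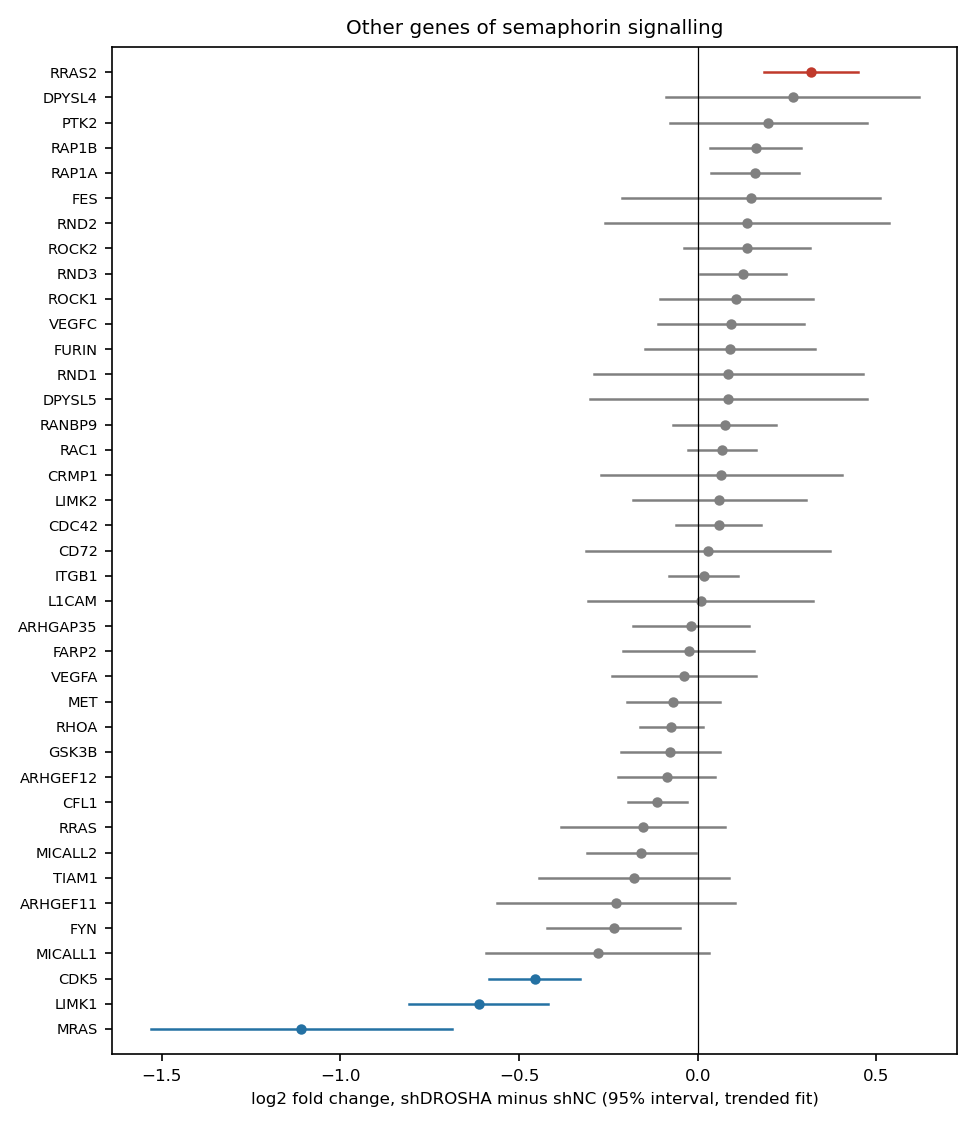
Log2 fold change (horizontal axis, shDROSHA minus shNC) of the 39 measured further genes of semaphorin signalling, in order of their value, with 95% intervals from the trended fit. Red marks RRAS2 (0.32), blue MRAS (-1.11), LIMK1 (-0.61) and CDK5 (-0.46), and grey the 35 that did not pass.

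SEMA3E and SEMA3C passed under each alternative run but the constant fit. DPYSL2 and MICAL3 passed in each but the constant fit and the fit without shNC replicate 1. Among the alternatives, the looser threshold could not end a call, so passing there is not a check. Taking 1 row per gene left the members' values unchanged, since each had a single probe set. That run could change only the pooled spread and the adjustment of p-values.

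**Figure D5:**
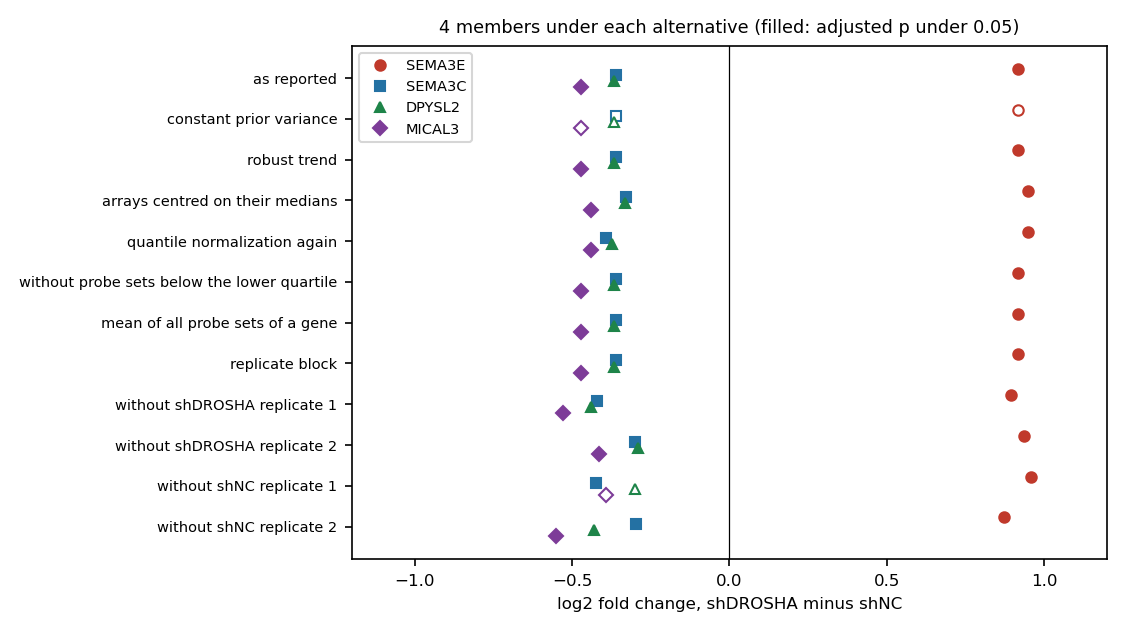
Log2 fold change (horizontal axis, shDROSHA minus shNC) of SEMA3E, SEMA3C, DPYSL2 and MICAL3 as reported and under 11 alternatives (vertical axis), filled where the adjusted p was under 0.05. All 4 are open with a constant prior variance, and DPYSL2 (-0.30) and MICAL3 (-0.39) are open without shNC replicate 1.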

How the data were processed

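RNA of MDA-MB-231 cells was hybridised to 4 arrays, 2 labelled shDROSHA and 2 labelled shNC. The authors deposited log2 signals per probe set, made with RMA per the submitters' processing notes. RMA corrects background, equalises array distributions and summarises probes. Its version is not stated in those notes. No detection calls were used, so dim probe sets can reflect background, and a shift common to most transcripts is removed.

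Probe sets were named by the platform annotation and its Entrez identifiers through RefSeq (GRCh38.p14). All 35 measured members matched. Differences were tested in limma 3.58.1 under R 4.3.3 (lmFit, eBayes with trend) over all probe sets with Benjamini-Hochberg adjustment. SEs and 95% intervals come from this trended fit. It had 11.9 prior and 2 residual degrees of freedom. The labels call the replicates biological without naming separate cultures. The p-values rest on spread between these arrays, largely pooled over probe sets of like signal, and the number of arrays limits the precision.

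Members, gene lists, the trended fit as the main fit and the motifs were chosen with earlier results of these data known. Values per array are given for DROSHA, for members past the threshold and for the 10 others with the smallest p. PLXND1 was added as the receptor of SEMA3E. Of the further pathway genes, the 8 with the smallest p and MET and VEGFA were named by rule. The others were named for their roles after their values were seen. Alternatives were a constant or robust prior, median centring, repeated quantile normalization, a filter on dim probe sets, 1 row per gene, a replicate block, a threshold of 0.1 and leaving out each array. The fits were tested on simulated data.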

Additional observations from a re-analysis of the deposited data

How the results depend on the processing

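With 1 constant prior variance, members called higher went from 1 to 0 and lower from 3 to 0, as did the further pathway genes called higher (1 to 0) and lower (3 to 0). Without 1 array, members called lower were 1 to 5, pathway genes called higher 1 to 2, and the members' median -0.11 to -0.057. That median was -0.10 with arrays centred on their medians. VEGFA, at -0.04, turned to 0.068 without shDROSHA replicate 1 and to 0.02 without shNC replicate 2. All probe sets called were 535 without shNC replicate 1, 748 without shNC replicate 2, 1949 without shDROSHA replicate 1 and 1824 at adjusted p 0.10. With the replicate number as a block, members called stayed at 1 higher and 3 lower and 1391 probe sets were called. No call of a named gene changed with the block. Same-numbered arrays had deviations correlated at -0.022, so the numbers are not known to pair them. Among the 25 named genes, DROSHA included, the constant prior ended 9 calls. The robust prior, median centring and 1 row per gene changed none. Quantile normalization again added CFL1 (-0.14, limma adjusted p = 0.0362). Without shDROSHA replicate 2 RAP1B was called (0.22, limma adjusted p = 0.0269). The filter on dim probe sets left 22 of the 25, and no call among these changed. It removed MRAS, a called gene, and pathway genes called lower went from 3 to 2. Where an array was left out, the lone array was taken to vary like the other group. Causes were not tested.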

Other observations

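Protein-coding neighbours of the chromosome 7 semaphorin genes, picked after the semaphorin values were seen, gave no call. All were dim and lay in the bottom pair of the 5 signal bins. Only 0.833% and 1.94% of all probe sets were called there, so the lack of a call says little about these genes. In RefSeq order, CD36 precedes SEMA3C, the genes HGF, CACNA2D1 and PCLO lie between SEMA3C and SEMA3E, and GRM3 follows SEMA3D. CD36, a fatty acid receptor, differed by -0.02 between shDROSHA and shNC, and HGF, the ligand of MET, by 0.06. CACNA2D1, a calcium channel subunit, differed by 0.20 with knockdown arrays above both controls, and PCLO, a presynaptic scaffold, by -0.22 with overlapping arrays. GRM3, a glutamate receptor, differed by 0.05. All 5 had trended limma adjusted p between 0.542 and 0.981, and their signals lay between 4.06 and 6.30.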
